A study of Mus musculus with 18 samples.

Results

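A set of 9 genes of the phagocyte NADPH oxidase and of antioxidant defence was followed in mouse brain after a systemic lipopolysaccharide (LPS) challenge. The genes were picked from the 36172 in the expression table by their symbols. All 9 were among the 14803 genes that passed the filter on low counts. Of these, 4 encode subunits of the oxidase (Cybb, Cyba, Ncf1 and Ncf4) and 5 belong to antioxidant defence (Sod2, Nfe2l2, Nqo1, Gclm and Slc7a11).

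Every animal carried both Cx3cr1-cre/ERT2 and NuTRAP, controls included. Cre-ERT2 is driven in these mice by Cx3cr1, a gene of microglia and of other macrophages and monocytes, and tamoxifen, given on 5 consecutive days at about 3 months of age, lets the cells that express it make a ribosomal protein tagged with EGFP. LPS at 5 mg/kg or phosphate-buffered saline (PBS) was injected intraperitoneally 3 to 4 weeks later, and brain hemispheres were taken 24 h after it. RNA was sequenced from the supernatant of the centrifuged homogenate (input) and from the ribosomes pulled down with an antibody to GFP (positive fraction). Each animal thus gave a library of each kind. The 4 groups were input PBS (n = 4 animals), input LPS (n = 4), positive PBS (n = 4) and positive LPS (n = 5). The LPS animals were 266, 267, 270, 271 and 507 (4 female, 1 male) and the PBS animals 268, 272, 273 and 506 (2 female, 2 male). Each animal is a replicate, and its 2 libraries are a pair.

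The 17 libraries used held 22968939 to 35123345 estimated counts. The input library of LPS animal 271 held 1252 counts in all and was left out, so that this animal has a positive library only. All 10 microglial markers were enriched in the positive fraction over input in PBS animals and all 10 in LPS animals. Their summed level was 202200 to 248517 normalised counts in positive PBS and 156940 to 218194 in positive LPS, against 10013 to 14077 in the input libraries. Markers of other brain cells were not all depleted. Neuron markers summed to 164644 to 188095 in positive PBS and 157316 to 167619 in input PBS libraries, with 2 of 5 called higher in the positive fraction, and astrocyte markers to 56363 to 70639 and 69236 to 72165, with 2 of 6 called lower. Oligodendrocyte markers were called lower in 5 of 5. Endothelial markers were enriched, with 4 of 5 called higher in the positive fraction in PBS animals and 3 of 5 in LPS animals. They summed to 4759 to 7087 in positive PBS and 1725 to 2708 in input PBS libraries. Both libraries of LPS animal 270 stood at the low end of the LPS groups for most of the 9 genes. Values without that animal are given for the LPS effect on the genes that were called.

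The phagocyte oxidase is a membrane enzyme that passes electrons from NADPH to oxygen and so makes superoxide. Its core is made of the catalytic subunit encoded by Cybb and the partner encoded by Cyba, and the enzyme is silent until cytosolic subunits (Ncf1 and Ncf4 among them) and a Rac GTPase join it at the membrane. In the brain it is best known from microglia. Superoxide formed in mitochondria is removed by the manganese superoxide dismutase Sod2, a well-known target of NF-kB, while NRF2, encoded by Nfe2l2 and held in check by Keap1, switches on genes such as Nqo1 (a quinone reductase), Gclm (the modifier subunit of the enzyme that makes the glutathione precursor) and Slc7a11 (the cystine transporter that feeds glutathione synthesis) through antioxidant response elements (ARE).

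The sequence upstream of these genes is shown where it held one of 5 motifs, since the genes are grouped by the factors known to act on them. The 250 bases before the RefSeq start were searched on both strands in the 8 genes with an entry (GRCm38.p6, the same build as mm10). Ncf4 was not searched. The ARE core TGACNNNGC was found in 2 of the 8 genes, against 10.2% of 32851 mouse promoters of the same length. The AP-1 motif was searched as TGANTCA, with any base in the middle, and was found in 1 of 8 (6.75% of all promoters). Its match in Cybb has A in the middle, so it meets this loose pattern, and no stricter one was searched. The kB motif was found in 1 of 8 (7.25%). The PU.1 motif GAGGAAGT (2.44% of all promoters) and the E-box CACGTG (6.02%) were found in 0 of 8. The lines give each match in capitals with up to 30 bases on either side, 5′ to 3′ on the strand of the gene. In Gclm the ARE core is read on the opposite strand.
Nfe2l2, ARE core, chr2:75704865-75704913, minus strand: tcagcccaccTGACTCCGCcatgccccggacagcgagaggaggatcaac
Gclm, ARE core, chr3:122245393-122245461, plus strand: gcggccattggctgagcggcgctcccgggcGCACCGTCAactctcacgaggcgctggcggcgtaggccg
Cybb, AP-1, chrX:9469427-9469493, minus strand: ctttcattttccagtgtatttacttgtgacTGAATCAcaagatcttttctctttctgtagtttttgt
Sod2, kB, chr17:13007726-13007795, plus strand: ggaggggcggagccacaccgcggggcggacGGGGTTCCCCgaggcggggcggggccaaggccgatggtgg
The matches begin 240, 134, 139 and 83 bases upstream of the start. The Nfe2l2 window also overlaps an exon of E030042O20Rik, a noncoding transcript on the opposite strand in GENCODE, and the other windows overlap no annotated exon. A match is a description of the letters and not a site shown to be used.

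LPS raised all 4 oxidase subunits in the positive fraction, together with Sod2 and Slc7a11, while Nfe2l2, Nqo1 and Gclm did not pass the test. Genes were called with edgeR's quasi-likelihood test at a Benjamini-Hochberg adjusted p under 0.05 over all genes and a log2 fold change over 0.32 in size. By this rule 6 of the 9 genes were higher after LPS in the positive fraction, where 19.0% of all genes tested were called higher and 14.9% lower. The median log2 fold change was 1.26 over the 9 genes and 0.011 over all genes. The 9 genes were chosen with earlier results of these data known. In input 4 of the 9 were higher, all oxidase subunits, where 7.16% of all genes were called higher and 5.26% lower, and the median was 0.76 over the 9 genes against 0.004 over all genes. The libraries of both treatments did not overlap for 6 of the 9 genes in the positive fraction (30.1% of all genes) and for 4 of 9 in input (24.2% of all genes). In such bulk libraries a change in the number of cells and a change in RNA per cell cannot be told apart.

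**Figure D1:**
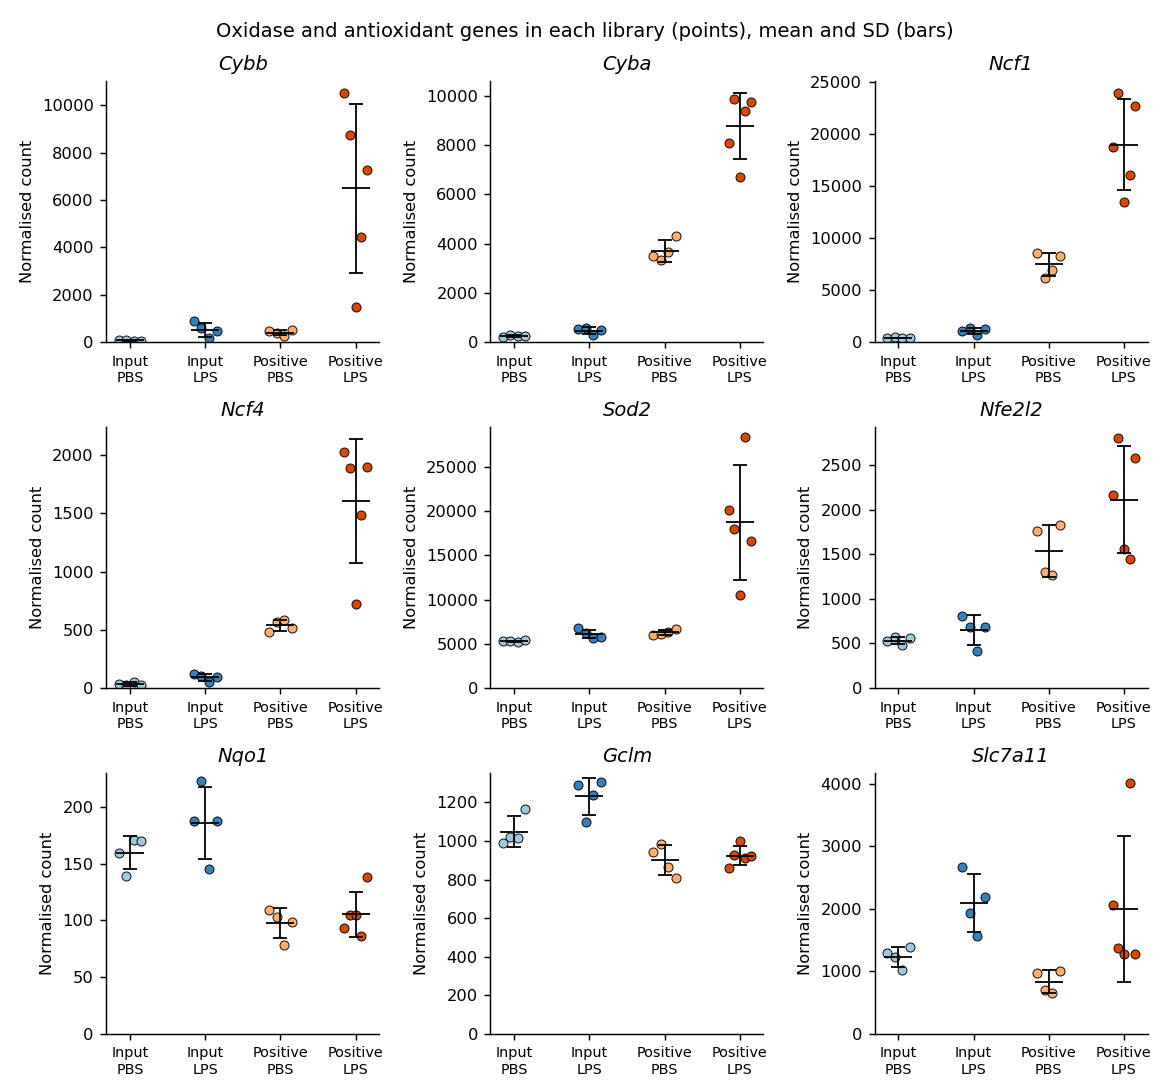
Normalised count (estimated count divided by the library's size factor, linear axis from 0) of each gene in every library of the 4 groups; points are libraries, and bars give the mean and SD. The 5 positive LPS libraries lie above all 4 positive PBS libraries for Cybb, Cyba, Ncf1, Ncf4, Sod2 and Slc7a11.

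Cybb, the catalytic subunit, had the largest LPS effect of the 9 genes in both fractions. In the positive fraction it stood at 449, 406, 261 and 500 normalised counts in PBS animals 268, 272, 273 and 506. After LPS it stood at 10494, 8750, 1495, 4456 and 7243 in animals 266, 267, 270, 271 and 507. The groups did not overlap. Animal 270 was the lowest of the LPS animals. The log2 fold change was 4.00 (SE 0.50, adjusted p = 6.15e-06), and 4.26 without animal 270 (adjusted p = 4.63e-09). In input Cybb was at 75.2, 97.0, 55.1 and 65.7 in the PBS animals and at 883, 596, 157 and 470 in LPS animals 266, 267, 270 and 507, again without overlap. The log2 fold change in input was 2.85 (SE 0.54, adjusted p = 0.00132). With the animal as a block the input value was 2.57 and missed the threshold (adjusted p = 0.0513).

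Cyba, the membrane partner that stabilises the catalytic subunit, rose less and from a far higher level. Its positive libraries held 3498, 3327, 3652 and 4327 normalised counts after PBS and 8104, 9879, 6709, 9388 and 9737 after LPS, in the order of animals given for Cybb. The groups were clear of each other (log2 fold change 1.24, SE 0.17, adjusted p = 1.18e-05). In input the PBS libraries held 218, 280, 267 and 241, and the LPS libraries 514, 588, 271 and 488. Animal 270 fell inside the PBS range there, while the test was passed (log2 0.89, SE 0.18, adjusted p = 0.00267).

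Ncf1, the organiser subunit that brings the cytosolic complex to the membrane, was the subunit with the highest counts. Positive libraries went from 8535, 6175, 6913 and 8268 in PBS animals to 18734, 23941, 13486, 16089 and 22716 in LPS animals. Input libraries went from 388, 446, 426 and 411 to 1118, 1359, 701 and 1273. The groups did not overlap in either fraction. On the log2 scale it rose by 1.35 in positive libraries (SE 0.18, adjusted p = 1.21e-05) and by 1.41 in input (SE 0.19, adjusted p = 5.9e-05).

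Ncf4, a regulatory cytosolic subunit, had the lowest counts of the oxidase genes in input. It was at 484, 570, 582 and 515 in positive PBS libraries and at 2030, 1888, 723, 1482 and 1898 in positive LPS libraries, with animal 270 closest to the PBS range (log2 1.58, SE 0.27, adjusted p = 0.000129). The input libraries held 33.3, 22.6, 52.0 and 27.0 after PBS and 117, 105, 48.8 and 97.5 after LPS. Animal 270 lay below PBS animal 273 there. The input change was called (log2 1.43, SE 0.34, adjusted p = 0.00744), but it missed the threshold with the animal as a block (log2 1.40, adjusted p = 0.129) and without animals 506 and 507 (log2 1.31, adjusted p = 0.0799).

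The subunits differed in level when counts were divided by the length of their exons (exon union of GENCODE M21, an approximation, since the files count RefSeq models). In positive PBS libraries Cyba had 4975 ± 588 normalised counts per kb (SD, n = 4) and Ncf1 2593 ± 388. Ncf4 had 367 ± 31.7 and Cybb 85.0 ± 21.6, and the ranges of neighbours in this order did not overlap. After LPS the order of the first 2 held, with Cyba at 11779 ± 1808 (SD, n = 5) and Ncf1 at 6590 ± 1524. Cybb reached 1365 ± 750 per kb, with a range of 315 to 2208, which overlapped that of Ncf4 (494 to 1387). The level of Cybb per length was below those of the other 3 genes in PBS animals, and its range met that of Ncf4 in LPS animals.

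Sod2, the mitochondrial superoxide dismutase, rose in the positive fraction and was not called in input. Positive PBS libraries held 5976, 6099, 6382 and 6687 normalised counts. Positive LPS libraries held 20177, 17934, 10507, 28372 and 16635, with animal 271 highest and animal 270 lowest, all above the PBS range (log2 1.57, SE 0.18, adjusted p = 2.04e-06). Input libraries held 5294, 5295, 5231 and 5377 after PBS and 6754, 6215, 5695 and 5733 after LPS. The input groups did not overlap, but the change was small and did not pass the test (log2 0.20, SE 0.18, adjusted p = 0.506).

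**Figure D2:**
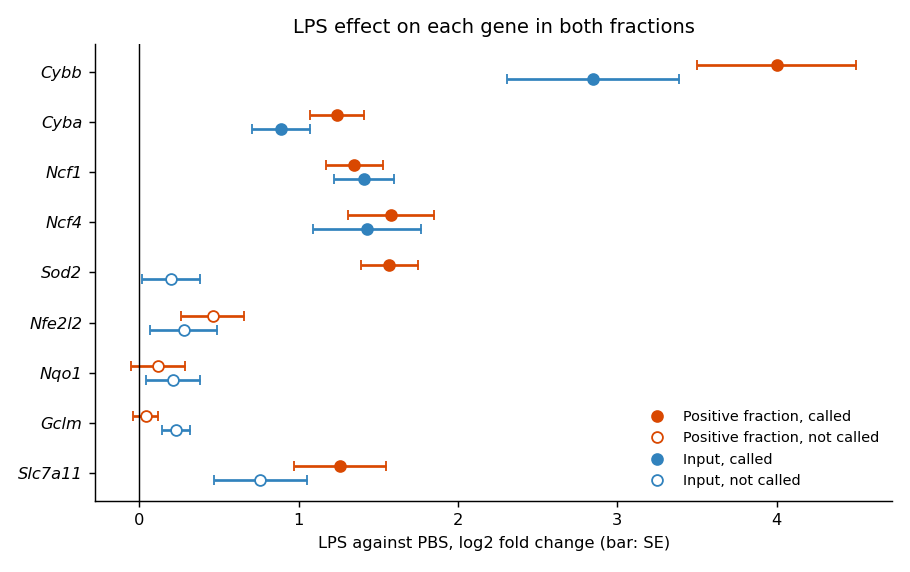
Log2 fold change of LPS against PBS for each gene (x axis), in the positive fraction (orange) and in input (blue), with bars for the SE; filled points were called and open points were not. Sod2 stands at 1.57 in the positive fraction and at 0.20 in input, while the pair of points of Ncf1 lies at 1.35 and 1.41.

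Slc7a11, the cystine transporter, also rose in the positive fraction, with a wide spread. PBS libraries held 977, 705, 651 and 1004 normalised counts and LPS libraries 2054, 1374, 1272, 4010 and 1272. No LPS library fell in the PBS range, and animal 271 was nearly 2 times as high as the next (log2 1.26, SE 0.29, adjusted p = 0.00203). Without that library the log2 fold change was 0.84 (adjusted p = 0.00191). Input libraries held 1292, 1224, 1020 and 1380 after PBS and 2674, 1928, 1565 and 2180 after LPS. They did not overlap either, yet the test was not passed (log2 0.76, SE 0.29, adjusted p = 0.0945). It was passed with the animal as a block (log2 0.87, adjusted p = 0.0295) and without the positive library of animal 271 (log2 0.76, adjusted p = 0.00878).

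Nfe2l2, which encodes NRF2, did not pass the test for LPS in either fraction. Positive libraries held 1755, 1302, 1267 and 1827 normalised counts after PBS and 2159, 2809, 1560, 1449 and 2574 after LPS, so that animals 270 and 271 lay inside the PBS range (log2 0.46, SE 0.20, adjusted p = 0.0736). The call was made without animal 270 (log2 0.55, adjusted p = 0.0153), without its positive (log2 0.55, adjusted p = 0.0339) or its input library alone (log2 0.45, adjusted p = 0.0438) and without the positive library of animal 271 (log2 0.57, adjusted p = 0.0262). In input the PBS libraries held 523, 572, 476 and 557 and the LPS libraries 806, 683, 414 and 689 (log2 0.28, SE 0.21, adjusted p = 0.414).

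Nqo1 and Gclm, both classical NRF2 targets, were not called for LPS in either fraction. Nqo1 held 97.1 ± 13.1 normalised counts in positive PBS (SD, n = 4) and 106 ± 19.7 in positive LPS libraries (n = 5), with 0.12 as the log2 difference (SE 0.17, adjusted p = 0.603). Its input libraries held 160 ± 14.9 and 186 ± 32.0 (n = 4 each, log2 0.21, SE 0.17, adjusted p = 0.448). Gclm held 900 ± 77.8 in positive PBS and 924 ± 49.6 in positive LPS libraries (log2 0.04, SE 0.08, adjusted p = 0.749). In input it held 1048 ± 79.7 and 1232 ± 96.0 (log2 0.23, SE 0.09, adjusted p = 0.0813). The ranges of both treatments overlapped for both genes in both fractions.

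The next comparison asked how far each transcript was enriched on the tagged ribosomes. In PBS animals 5 of the 9 genes were called higher in the positive fraction than in input (21.0% of all genes tested) and 1 was called lower (18.8% of all genes). In LPS animals 6 were higher (27.6% of all genes) and 2 lower (25.8% of all genes). The median log2 ratio over the 9 genes was 1.53 in PBS and 1.70 in LPS animals, against -0.001 and -0.027 over all genes.

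Cyba, Ncf1 and Ncf4 were the most enriched of the 9 genes. The ratio of positive to input normalised counts, taken within each animal, was 14.9 ± 2.66 for Cyba in PBS animals (SD, n = 4) and 19.3 ± 4.00 in LPS animals (n = 4). For Ncf1 it was 18.1 ± 3.67 and 17.9 ± 0.998, and for Ncf4 17.5 ± 6.07 and 17.4 ± 1.96. The ranges of the treatments overlapped for these 3 genes. Their fitted log2 ratios lay between 3.88 and 4.24, with the highest adjusted p at 1.62e-08. Nfe2l2 was enriched less, by 2.89 ± 0.52 in PBS and 3.58 ± 0.62 in LPS animals (log2 1.53 and 1.70, adjusted p = 1.33e-05 and 1.43e-06).

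Cybb and Sod2 had higher ratios after LPS. For Cybb the ratio was 5.97, 4.19, 4.74 and 7.6 in PBS animals 268, 272, 273 and 506, and 11.9, 14.7, 9.52 and 15.4 in LPS animals 266, 267, 270 and 507 (log2 2.47 in PBS, adjusted p = 0.00118, and 3.62 in LPS, adjusted p = 5.11e-06). For Sod2 the ratio was 1.13, 1.15, 1.22 and 1.24 in PBS animals, close to 1, and 2.99, 2.89, 1.84 and 2.9 in LPS animals. Neither gene's treatments overlapped, with 4 animals each, and the share of all genes without such overlap is not given. The direct test of the difference, given below, called Sod2 and did not call Cybb (log2 1.16, adjusted p = 0.396) without the animal as a block. Sod2 was not called enriched in PBS animals (log2 0.25, SE 0.18, adjusted p = 0.281) and was called in LPS animals (log2 1.62, SE 0.18, adjusted p = 4.73e-07).

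**Figure D3:**
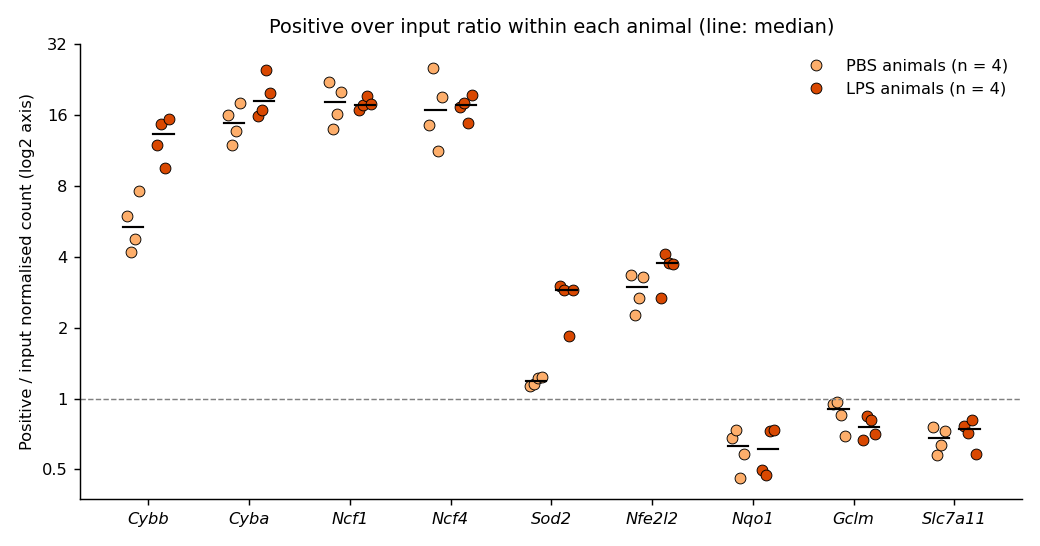
Ratio of the positive to the input normalised count within each animal (log2 axis; points are animals, lines are medians) for PBS and LPS animals, with 4 animals each. Cyba, Ncf1 and Ncf4 lie above 10 in every animal, Sod2 moves from 1.13 to 1.24 in PBS animals to 1.84 to 2.99 in LPS animals, and Nqo1, Gclm and Slc7a11 lie below 1.

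Nqo1, Gclm and Slc7a11 had ratios below 1. The neuron and astrocyte markers given above were near their input level in the same libraries, and their part in these ratios was not tested. Nqo1 had a ratio of 0.615 ± 0.123 in PBS and 0.608 ± 0.143 in LPS animals (SD, n = 4 each), and both were called (log2 -0.71 and -0.81, adjusted p = 0.00274 and 0.000332). Gclm had 0.866 ± 0.125 and 0.756 ± 0.0836. It was called in LPS animals (log2 -0.42, adjusted p = 0.000279) and stayed under the fold threshold in PBS animals (log2 -0.22, adjusted p = 0.0477). Slc7a11 had 0.674 ± 0.0825 and 0.719 ± 0.0992, below 1 in each of the 8 animals with both libraries. It was not called without the animal as a block in PBS (log2 -0.56, SE 0.30, adjusted p = 0.133) or LPS animals (log2 -0.06, SE 0.28, adjusted p = 0.851), where the positive library of animal 271 has no input partner. With the block it was called lower in both (log2 -0.58, adjusted p = 7.05e-05, and log2 -0.49, adjusted p = 0.000165), and in LPS animals also without the positive library of animal 271 (log2 -0.48, adjusted p = 0.032).

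The difference of the LPS effect between the fractions was tested directly. Of the 9 genes, Sod2 was called (5.46% of all genes were called with a positive difference, positive fraction minus input, and 1.42% with a negative one). Its log2 effect was larger by 1.37 in the positive fraction (SE 0.25, adjusted p = 0.00254), and 1.49 without animal 270 (adjusted p = 9.6e-05). For Cybb the difference was 1.16 (SE 0.70, adjusted p = 0.396), and with the animal as a block it was 1.23 and called (adjusted p = 0.000939). Ncf1 had a difference of -0.07 (SE 0.26, adjusted p = 0.926) and Ncf4 of 0.14 (SE 0.44, adjusted p = 0.905). The other 5 genes had differences between -0.20 and 0.50, and a value that missed the threshold does not show equal effects.

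The LPS animals differed among themselves in a way that several of the 9 genes shared. Animal 270 was the lowest LPS animal for 6 of the 9 genes in the positive fraction, namely the 4 oxidase subunits, Sod2 and Slc7a11, and for 8 of 9 in input, all but Gclm. For Slc7a11 in the positive fraction it was all but level with animal 507 (1.52 and 1.53 times the PBS mean). The positive Cybb level of animal 270 was 3.7 times the PBS mean, whereas that of the other LPS animals was 11.0 to 26.0 times. In input its Cyba level was 1.08 times and its Sod2 level 1.07 times the PBS mean. Animal 266 was highest for Cybb and Ncf4 in both fractions, and animal 271 was highest for Sod2 and Slc7a11 in the positive fraction. Without both libraries of animal 270, 7 of the 9 genes were called for LPS in the positive fraction and 4 in input. Log2 fold changes in positive libraries were then 4.26 for Cybb, 1.33 for Cyba, 1.45 for Ncf1, 1.76 for Ncf4, 1.72 for Sod2, 1.38 for Slc7a11 and 0.55 for Nfe2l2, with the highest adjusted p at 0.0153. In input they were 3.15 for Cybb, 1.08 for Cyba, 1.58 for Ncf1 and 1.64 for Ncf4, with the highest adjusted p at 3.1e-05.

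**Figure D4:**
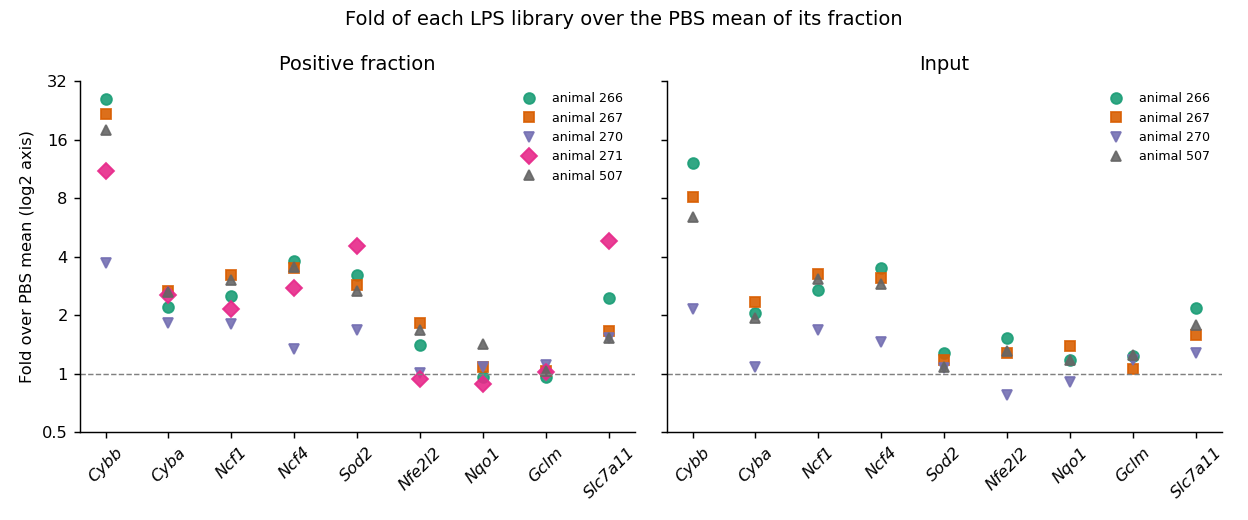
Normalised count of each LPS library divided by the mean of the PBS libraries of its fraction (log2 axis), one symbol per animal, in the positive fraction (left, 5 animals) and in input (right, 4 animals). Animal 270 is at 3.7 for Cybb in the positive fraction, below the 11.0 to 26.0 of the others, and animal 271 is highest for Sod2 and Slc7a11.

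Neutrophils and monocytes use the same oxidase, so the markers of these cells are given beside it. The 10 neutrophil markers summed to 143 to 311 normalised counts in positive PBS and 419 to 1012 in positive LPS libraries, and to 464 to 846 in input PBS and 742 to 1595 in input LPS libraries. Of the 5 that were tested, 4 were called higher after LPS in each fraction, and 4 were called lower in the positive fraction than in input in PBS animals and 3 in LPS animals. Mean normalised counts of S100a8 after PBS and LPS were 15.9 and 415 in positive libraries and 77.8 and 313 in input libraries. Those of S100a9 were 18.5 and 71.7, and 107 and 396 in input, and those of Ngp 15.4 and 85.5, and 25.4 and 141 in input. Cxcr2 showed no such rise, with means of 140 and 143, and 384 and 337 in input. The mean sums after PBS were 202 in positive and 655 in input libraries, so Cxcr2 made up most of them. Ltf and Mpo did not rise in positive libraries either, with means of 3.1 and 3.08, and 3.09 and 2.89. The defining gene Ly6g was at 0 in all 17 libraries and Elane in 16 of 17. In animal 270 the neutrophil sum was the lowest of the LPS animals, at 419 in the positive fraction and 742 in input. This was not particular to neutrophil markers. In input its microglial (10013), monocyte and border macrophage (481), astrocyte (79640) and endothelial (2413) sums were also the lowest of the LPS animals. Of these only the endothelial sum was also lowest in the positive fraction (3878). Its neuron and oligodendrocyte sums were the highest of the LPS animals in both fractions. Monocyte and border macrophage markers summed to 4286 to 8603 in positive PBS and 2866 to 5556 in positive LPS libraries, with 3 of 7 called lower after LPS. In input they summed to 450 to 606 after PBS and 481 to 685 after LPS, with 0 of 7 called. In positive libraries Mrc1 had means of 2231 after PBS and 889 after LPS, and F13a1 1868 and 1676. The monocyte genes were far lower, with Ly6c2 at 147 and 183, Ccr2 at 43.6 and 8.45 and Plac8 at 3.99 and 3.57. The sum therefore says little about monocytes. Of the microglial markers 5 were called lower and 2 higher after LPS in the positive fraction. The part of either cell type in the rise of the oxidase genes was not tested.

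The counts called in this list and in those that follow are to be read against the shares of all genes. These were 19.0% higher and 14.9% lower after LPS in the positive fraction, and 7.16% higher and 5.26% lower in input. The list of oxidase partners holds Rac proteins, regulators and homologues of the subunits. Of 17 listed genes 11 were tested, and LPS raised 3 in the positive fraction (median log2 0.29) and 2 in input (median log2 0.32). Rac2, the haematopoietic Rac GTPase of the complex, went from 1231 ± 57.2 to 5309 ± 1542 normalised counts in the positive fraction (SD, n = 4 and 5, log2 2.11, SE 0.24, adjusted p = 2.42e-06) and also rose in input (log2 1.47). Hvcn1, the proton channel that balances the charge the oxidase moves, rose by a log2 of 1.81 in positive libraries (SE 0.17, adjusted p = 3.12e-07), and its effect there exceeded that in input by 1.32 (adjusted p = 0.00321). Vav1, an activator of Rac, rose by 1.09 (SE 0.15, adjusted p = 1.57e-05) and by 0.90 in input.

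All 14 listed partners and regulators of NRF2 were tested, and 2 were higher and 2 lower after LPS in the positive fraction. Of all genes 19.0% were higher and 14.9% lower there, so this list did not stand out. In input 2 were higher and 1 lower. Mafk, a small Maf partner, changed by 0.49 (SE 0.17, adjusted p = 0.0308) and Bach1, a repressor of the same elements, by 0.36 (SE 0.12, adjusted p = 0.0262). Bach2 fell by 0.38 on the log2 scale (adjusted p = 0.0275), and Btrc, a subunit of a ubiquitin ligase that also acts on NRF2, fell by 0.54 (adjusted p = 0.000214). Leaving out any 1 of the positive libraries of animals 268, 270, 271, 272 and 506 ended the call of Mafk (log2 0.39 to 0.50, adjusted p = 0.058 to 0.0767). That of Bach1 ended without 271, 272 or 273 (log2 0.29 to 0.33, adjusted p = 0.0625 to 0.095) without both libraries of 270 (adjusted p = 0.0525) and with sex as a covariate (log2 0.29, adjusted p = 0.0179, under the fold threshold). That of Bach2 ended without 267, 268, 270 or 271 (log2 -0.36 to -0.30, adjusted p = 0.0514 to 0.096) and with all 18 libraries (adjusted p = 0.104). Without animals 506 and 507 Mafk (adjusted p = 0.0603) and Bach2 (adjusted p = 0.0684) were not called either. Keap1, the NRF2 inhibitor, was at 2522 ± 104 normalised counts in positive PBS and 2979 ± 328 in positive LPS libraries, and its log2 change of 0.24 (SE 0.08, adjusted p = 0.0187) stayed under the fold threshold.

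Other NRF2 targets changed in both directions although Nqo1 and Gclm were not called. Of 28 listed targets, all tested, 12 were higher and 4 lower after LPS in the positive fraction (median log2 0.27), and 5 were higher in input (median 0.12). The 4 lower were Ephx1 (log2 -0.66), Me1 (log2 -0.55), Gsta4 (log2 -0.36) and Cbr1 (log2 -0.35). Hmox1, which degrades haem, went from 573 ± 90.5 to 1905 ± 236 normalised counts in the positive fraction (SD, n = 4 and 5, log2 1.73, SE 0.14, adjusted p = 4.05e-08), and rose in input by 1.23. Pgd, an enzyme of the pentose phosphate pathway that makes NADPH, went from 2177 ± 120 to 5146 ± 372 (log2 1.24, SE 0.07, adjusted p = 3.71e-10). Gsr, which reduces oxidised glutathione, rose by 1.26 (SE 0.14, adjusted p = 1.69e-06).

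Among the enzymes of superoxide and peroxide, 5 of 12 tested were higher and 1 lower after LPS in the positive fraction (median log2 0.07). In input 2 were higher (median 0.01). Sod1, the cytosolic superoxide dismutase, held 6045 ± 674 normalised counts in positive PBS and 5612 ± 605 in positive LPS libraries (log2 -0.11, SE 0.12, adjusted p = 0.489). Catalase (Cat) held 2338 ± 108 and 1963 ± 281 (log2 -0.25, SE 0.09, adjusted p = 0.0413), under the fold threshold. Ucp2, a mitochondrial carrier, rose by 1.46 (SE 0.14, adjusted p = 2.49e-07) and the peroxidase Gpx1 by 0.93 (SE 0.14, adjusted p = 5.24e-05). Gpx3 rose by 0.74 (SE 0.26, adjusted p = 0.0309), and by 1.90 in input (adjusted p = 0.000131). The difference was not called (log2 -1.16, adjusted p = 0.0747). The call of Gpx3 in the positive fraction ended without the positive library of 267, 268, 273 or 506 (adjusted p = 0.0636 to 0.0912). It also ended without animals 506 and 507 (adjusted p = 0.12).

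Of 17 thioredoxin and peroxiredoxin genes 6 were higher after LPS in the positive fraction (median log2 0.18) and 1 higher and 1 lower in input. Glrx, a glutaredoxin that removes glutathione from proteins, went from 927 ± 50.9 to 3325 ± 774 normalised counts (SD, n = 4 and 5, log2 1.84, SE 0.14, adjusted p = 1.58e-08), and its effect was 1.46 larger than in input (adjusted p = 0.000199). Prdx5 rose by 0.85 (SE 0.12, adjusted p = 2.14e-05), and its effect was 0.86 larger than in input (adjusted p = 0.00466).

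Among 20 glutathione genes 6 were higher and 5 lower after LPS in the positive fraction, so that their median log2 fold change was -0.06. In input 3 were higher. Gsto1, a glutathione transferase, rose by 1.40 (SE 0.14, adjusted p = 6.36e-07). Ggt5, an enzyme that cleaves extracellular glutathione conjugates, fell from 244 ± 48.0 to 80.1 ± 21.1 normalised counts (log2 -1.59, SE 0.19, adjusted p = 4.19e-06). Of 19 NADPH supply genes tested, 9 were higher and 1 lower in the positive fraction (median 0.29), and 3 were higher in input. In the positive fraction H6pd rose by 1.23 (SE 0.13, adjusted p = 6.23e-07) and the NAD kinase Nadk by 1.07 (SE 0.19, adjusted p = 0.000202). Mthfd2, a mitochondrial folate enzyme, rose there by 1.07 (SE 0.24, adjusted p = 0.00149).

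**Figure D5:**
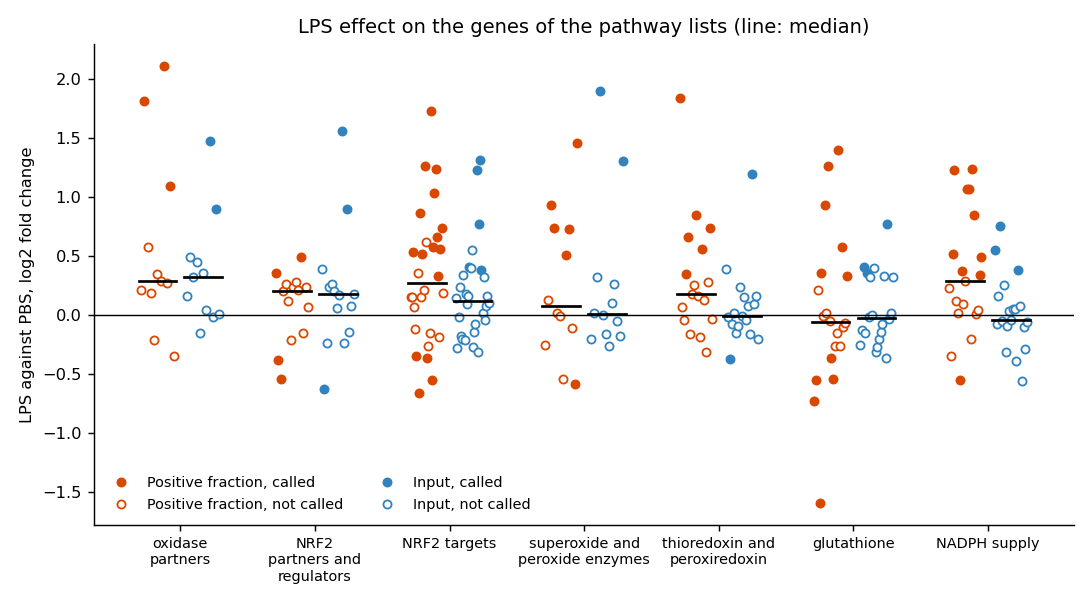
Log2 fold change of LPS against PBS for every tested gene of the 7 pathway lists (y axis), in the positive fraction (orange) and in input (blue); filled points were called, open points were not, and lines are medians. Medians in the positive fraction lie between -0.06 for glutathione and 0.29 for the oxidase partners and for NADPH supply. The 9 genes had a median of 1.26, and they and the lists were chosen with earlier results of these data known.

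Over the 7 lists together, 113 distinct genes were listed and 105 tested. LPS raised 34 and lowered 11 in the positive fraction (median log2 0.19) and raised 15 and lowered 2 in input (median 0.04), to be read against the shares of all genes given above. The direct test of the signed difference, positive fraction minus input, called 14 above 0 (5.46% of all genes) and 3 below 0 (1.42% of all genes). These 3 were named after their values were seen. Ggt5 had a difference of -1.45 (adjusted p = 0.00453), with a fall in the positive fraction (log2 -1.59) and no call in input (log2 -0.15). The thioredoxin inhibitor Txnip had a difference of -1.51 (adjusted p = 0.000487), and its LPS effect was called in input (log2 1.19) and not in the positive fraction (log2 -0.31). The small Maf gene Maff had a difference of -1.28 (adjusted p = 0.0202) with the same pattern of calls (log2 1.56 in input and 0.28 in the positive fraction). It was not called without animals 506 and 507 (adjusted p = 0.0657).

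The genes whose levels over the 17 libraries were most like each member were found by Pearson's r of log2(normalised count + 1) among 12609 genes. The values are a description, since the points share libraries and the 4 groups. Cyba was closest to Clic1 (r = 0.999) and Vav1 (0.998), and Ncf1 to Gsdmd (0.997) and Hcls1 (0.996). Ncf4 was closest to Sp140 and Hcls1 (0.993 each), and Cybb to Gpr84 and Ms4a6c (0.986 each). Sod2 was closest to Mmp14 (0.979) and Ehd1 (0.978), and Nfe2l2 to Samhd1 (0.981) and Emr1 (0.98). The remaining genes had weaker partners. Gclm was closest to Crim1 (0.922) and Scn1a (0.921), Nqo1 to Myt1 (0.916) and Fam132a (0.906), and Slc7a11 to Zc3h12c (0.912) and Pdpn (0.886). Of the members themselves, Cyba and Ncf1 had an r of 0.99 with each other, and Cybb had 0.9 with Sod2 and 0.84 with Cyba.

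In the files' mm10 coordinates the oxidase genes lie apart, with Cybb (gene ID 13058) at chrX:9435252-9469324, Cyba (13057) at chr8:122424771-122432940, Ncf1 (17969) at chr5:134220260-134229625 and Ncf4 (17972) at chr15:78244811-78262580. Sod2 (20656) is at chr17:13007839-13018119, Nfe2l2 (18024) at chr2:75675519-75704641 and Nqo1 (18104) at chr8:107388225-107403205, while Gclm (14630, chr3:122245557-122267215) and Slc7a11 (26570, chr3:50364936-50443613) share a chromosome.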

How the data were processed

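Reads of strand-specific poly(A) libraries were aligned by the authors to mm10 in Strand NGS and quantified per RefSeq gene. The authors deposited estimated counts per gene, of which 81.6% of the values above 0 were not whole, and log2 values normalised with DESeq and baseline-subtracted, which were not used here. The normalised counts printed here are estimated counts divided by median-of-ratios size factors. For the fits the estimated counts were rounded to whole numbers, and the size factors entered as normalisation factors. Genes were tested if all libraries of at least 1 group exceeded 20 normalised counts. Group means (4 groups, 13 residual degrees of freedom) were fitted with edgeR 4.0.16 in R 4.3.3 by the quasi-likelihood test, with Benjamini-Hochberg adjustment, and the script was tested on simulated data. Calls needed an adjusted p under 0.05 and a log2 fold change over 0.32 in size. A total of 3 counts was 8.541e-06% to 1.306e-05% of a library, and such limits cover counting error only. Libraries with the same number come from the same animal, and in the 8 complete pairs their deviations from the group means correlated by 0.16 to 0.519. The study's ANOVA of RNA-seq data is described without a block, so the block (fixed in edgeR for ratios and differences, limma 3.58.1 with a within-animal correlation of 0.445 for the LPS effects) is an alternative. Other alternatives were DESeq2 1.42.0, TMM and total count scaling, no filter, all 18 libraries, only the libraries compared, sex as a covariate, and leaving out each library or animals 506 and 507. All 9 members are named. List genes are named by the largest change among those called in the positive fraction whose mean reached 100 normalised counts. Rac2, Keap1, Hmox1, Sod1 and Cat are always named, and the NRF2 targets called lower were added. A gene of the oxidase partners list is not reported here. Members and lists were chosen with earlier results of these data known. Promoter sequences are from RefSeq.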

Additional observations from a re-analysis of the deposited data

Results flagged for a closer look

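The LPS effect on Sod2 differed between the fractions by 1.37 on the log2 scale (edgeR's quasi-likelihood test of the difference, SE 0.25, adjusted p = 0.00254), being larger in the positive fraction. In the positive fraction after LPS, the Slc7a11 level of animal 271 (4010 normalised counts) lay far above the other 4 libraries, with a gap of 0.714 of the group's range. Gclm in the input library of PBS animal 506 (1166 normalised counts) lay above the other 3 by 0.834 of the range. These were 2 of 36 groups checked by Dixon's criterion, which chance passes about 1 time in 20.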

How the results depend on the processing

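Across the alternatives 6 to 7 of the 9 genes were called for LPS in the positive fraction, 3 to 5 in input, 6 to 7 for positive against input in PBS animals and 8 to 9 in LPS animals. The number called for the difference between fractions was 2 with the animal as a block and 1 in every other alternative. Over all genes, the LPS effect in input called 1839, and 1083 without animals 506 and 507; the difference called 1018, 1915 with the block and 323 without animals 506 and 507. The block changed no call of the 9 genes other than those printed beside the results. It changed no call among the list gene values that were checked with it, which do not include the NRF2 targets called lower. Changes of sign were limited to values near 0. Gclm for LPS in the positive fraction was -0.01 without animals 506 and 507 and -0.01 to 0.08 when each library was left out. Slc7a11 for positive against input in LPS animals was 0.08 without animals 506 and 507 and -0.48 to 0.08 when each library was left out. For the difference between fractions Ncf1 was 0.01 with the block, and leaving out each library gave -0.24 to 0.04 for Ncf1, -0.14 to 0.33 for Ncf4 and -0.20 to 0.0 for Nqo1. The cause of these shifts was not tested. Slc7a11 was also called for LPS in input with only the libraries compared (log2 0.76, adjusted p = 0.00383), and Gclm as lower than input in PBS animals with all 18 libraries (log2 -0.35) and with total count scaling (log2 -0.33). The calls for LPS in the positive fraction of the 4 oxidase subunits, Sod2 and Slc7a11 were kept in all alternatives. Without animal 270, an alternative chosen after its values were seen, 5121 genes were called for LPS in the positive fraction and 1615 in input.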
